A study of Mus musculus with 6 samples.

Results

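The 120 type 2 vomeronasal receptor genes of the mouse, named Vmn2r with a number, were followed in RNA from small extracellular vesicles (sEV), membrane-bound particles that cells release. They were taken as all protein-coding genes with such a symbol in GENCODE release M21, matched by Ensembl identifier, and were 120 of the 53379 identifiers and of the 21865 protein-coding genes in the deposited tables. The vesicles came from primary cultures of embryonic cortical neurons of wild-type (WT) mice. There were 3 libraries of neurons treated as control (NorEV, labelled exo-con) and 3 of neurons labelled OGD/R (HypEV, labelled exo-ogd). The series text speaks of normoxic and hypoxic neurons. Since the only other label is control, OGD/R is taken here as the hypoxic treatment. The labels give neither the length of the treatment, nor the age, nor whether replicates are separate cultures. The p-values therefore speak only of the variation among these 6 libraries, and that variation may be technical.

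Type 2 vomeronasal receptors are G protein-coupled receptors with a long extracellular domain that binds peptide and protein pheromones. They are made in sensory neurons of the basal layer of the vomeronasal organ in the nose, where they signal through the G protein subunit Go-alpha, a phospholipase C and the cation channel Trpc2. The genes lie in clusters of recently duplicated copies and are split over several exons, unlike the Vmn1r and olfactory receptor genes, whose coding sequence mostly lies in a single exon. Their transcription is not expected in cortical neurons.

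Nearly all Vmn2r genes were listed above 0 FPKM (fragments counted per kilobase of a gene, relative to the library's total) in some vesicle library, at a level well below that of a typical protein-coding gene. Of the 120 genes, 117 were above 0 in at least 1 library, 57 (47.5%) were above 0 in all 6, and 3 (2.5%) were listed at 0 throughout. Over all protein-coding genes, 82.4% were above 0 in all 6 libraries and 2.69% were at 0 in all. The shares at 0 throughout were close, while the share above 0 in every library was 47.5% against 82.4%, a description with no test. A further 41 receptor genes (34.2%) were above 0 in 5 of 6 libraries, against 7.21% of protein-coding genes.

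The share of Vmn2r genes above 0 was 82.5%, 91.7% and 92.5% in the 3 NorEV libraries, given here always in the order 1, 2, 3, and 70.8%, 90.8% and 75% in the HypEV libraries. HypEV 1 and 3 were below every NorEV library, while HypEV 2 lay inside the NorEV range. NorEV averaged 88.9% ± 5.55 and HypEV 78.9% ± 10.55 (SD, n = 3), beside 93.6% ± 2.30 and 90.9% ± 2.80 for all protein-coding genes. The median level was 1.30, 1.93 and 1.83 FPKM in NorEV and 0.543, 1.54 and 0.887 FPKM in HypEV. HypEV 2 again fell between the NorEV libraries. The means of these medians were 1.69 ± 0.338 and 0.991 ± 0.507 FPKM, against 7.39 ± 0.757 and 5.60 ± 2.40 FPKM for all protein-coding genes. Only 4 receptor genes had a mean over the 6 libraries above the median of the protein-coding means, 6.80 FPKM.

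Set against the protein-coding median of the same library, the Vmn2r median was 0.194, 0.266 and 0.223 of it in NorEV and 0.154, 0.187 and 0.176 of it in HypEV. All 3 HypEV ratios were below all 3 NorEV ratios, though HypEV 2 and NorEV 1 were close. Olfactory receptor genes had the same order, with 0.362, 0.354 and 0.348 in NorEV and 0.265, 0.335 and 0.322 in HypEV. Vmn1r genes did not, since their HypEV 3 ratio (0.297) was above every NorEV one. This is a description of chosen genes, with no test.

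The libraries also differed in depth. Reads counted on genes were recovered from the FPKM values, and NorEV 1, 2 and 3 held 1092724, 1413374 and 1494499 of them, HypEV 1, 2 and 3 held 2141611, 1445674 and 1320916. A group of 6 near-identical short non-coding genes, the Gm23935 family, took 4.34%, 0.561% and 0.303% of these reads in NorEV and 49.6%, 1.97% and 24.5% in HypEV. Outside it, 1045344, 1405452 and 1489975 reads remained in NorEV and 1079637, 1417156 and 997817 in HypEV, so that the 3 libraries with the fewest remaining reads were the 3 with the fewest Vmn2r genes above 0. Between libraries of like remaining depth, NorEV 2 and HypEV 2 differed little, whereas NorEV 1 had 82.5% and HypEV 1 had 70.8% of the receptor genes above 0. The part of depth and of the Gm23935 family in the lower levels was not tested further.

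**Figure D1:**
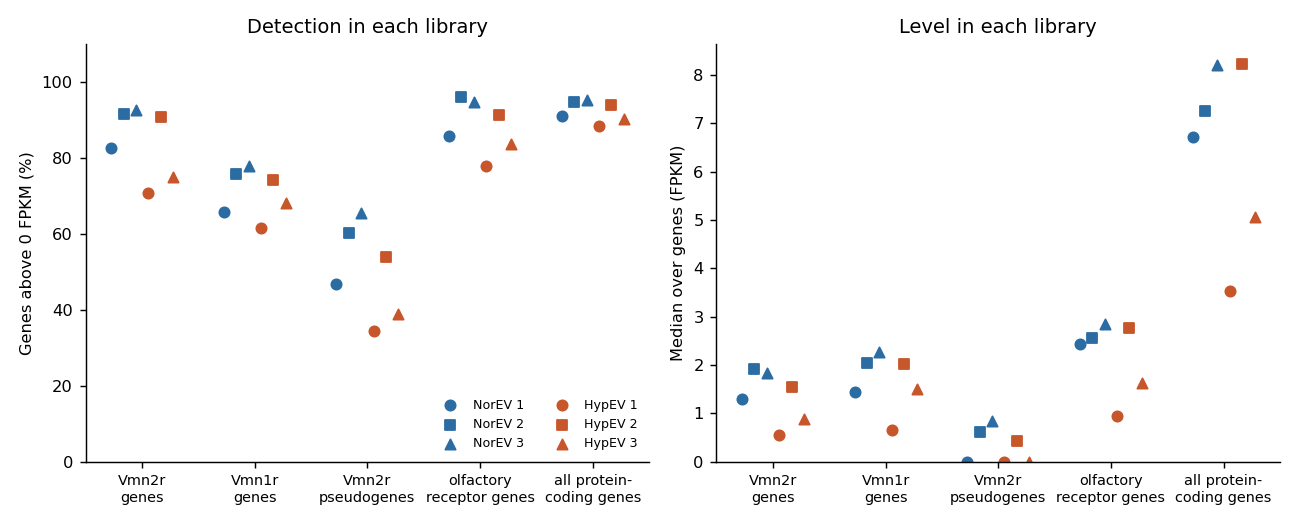
Share of genes above 0 FPKM (left, percent) and median level over genes (right, FPKM) in each of the 6 libraries, for Vmn2r genes and 4 comparison sets. Each point is 1 library, blue for NorEV and orange for HypEV. Vmn2r medians lie between 0.543 and 1.93 FPKM, below every protein-coding median, and HypEV 1 and 3 are the lowest of the 6 in detection.

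The Vmn2r genes together held 714, 1389 and 1306 reads in NorEV and 642, 1027 and 631 reads in HypEV. As a share of reads on genes, NorEV 1 had 0.0653% (Wilson 95% bounds 0.0607 and 0.0703), NorEV 2 had 0.0983% (0.0932 and 0.104) and NorEV 3 had 0.0874% (0.0828 and 0.0923). HypEV 1 had 0.0300% (0.0277 and 0.0324), HypEV 2 had 0.0710% (0.0668 and 0.0755) and HypEV 3 had 0.0478% (0.0442 and 0.0516). The groups overlapped, since HypEV 2 was above NorEV 1. With the Gm23935 family taken out of the library totals the shares were 0.0683%, 0.0988% and 0.0877% in NorEV and 0.0595%, 0.0725% and 0.0632% in HypEV, and the mean difference narrowed from 0.0837% ± 0.0168 against 0.0496% ± 0.0206 to 0.0849% ± 0.0154 against 0.0651% ± 0.00669 (SD, n = 3). The intervals cover counting error only. A typical receptor gene rested on few reads, with a median of 35.5 over all 6 libraries and of 3 to 8 in a single library. A gene listed at 0 held no recovered read, which still leaves room for an expected count of up to 3 reads (95% bound).

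Other chemoreceptor genes were listed at levels of the same order. The 198 Vmn1r genes, receptors of the apical vomeronasal neurons, reached medians of 1.92 ± 0.427 FPKM in NorEV against 1.39 ± 0.688 in HypEV (SD, n = 3), and 32 of them (16.2%) were at 0 in all libraries. The 1092 olfactory receptor genes had 2.62 ± 0.218 and 1.77 ± 0.920 FPKM, and 6 of them (0.549%) were at 0 throughout. The 113 Vmn2r pseudogenes, remains of the same family, had 0.483 ± 0.432 and 0.141 ± 0.243 FPKM, and 57.5% ± 9.57 and 42.5% ± 10.21 of them were above 0.

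Levels were uneven along the genome (GRCm38). The receptor genes fell into 17 clusters on 8 chromosomes, when neighbours over 1 megabase apart were parted. The highest cluster was that of Vmn2r111 to Vmn2r117 on chromosome 17, from 22544504 to 23479699, whose 7 genes had a median of 5.52 FPKM over the libraries' means. Within it the median was 4.62, 9.90 and 7.28 FPKM in NorEV and 1.81, 4.84 and 3.53 FPKM in HypEV, with HypEV 2 above NorEV 1. The lowest cluster of several genes was that of Vmn2r29 to Vmn2r52 on chromosome 7, from 7231327 to 10176573, whose 24 genes had a median of 0.596 FPKM. In it, 19 of 24 genes were at 0 in at least 1 library, and the median gene was listed at 0 in HypEV 1 and HypEV 3.

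**Figure D2:**
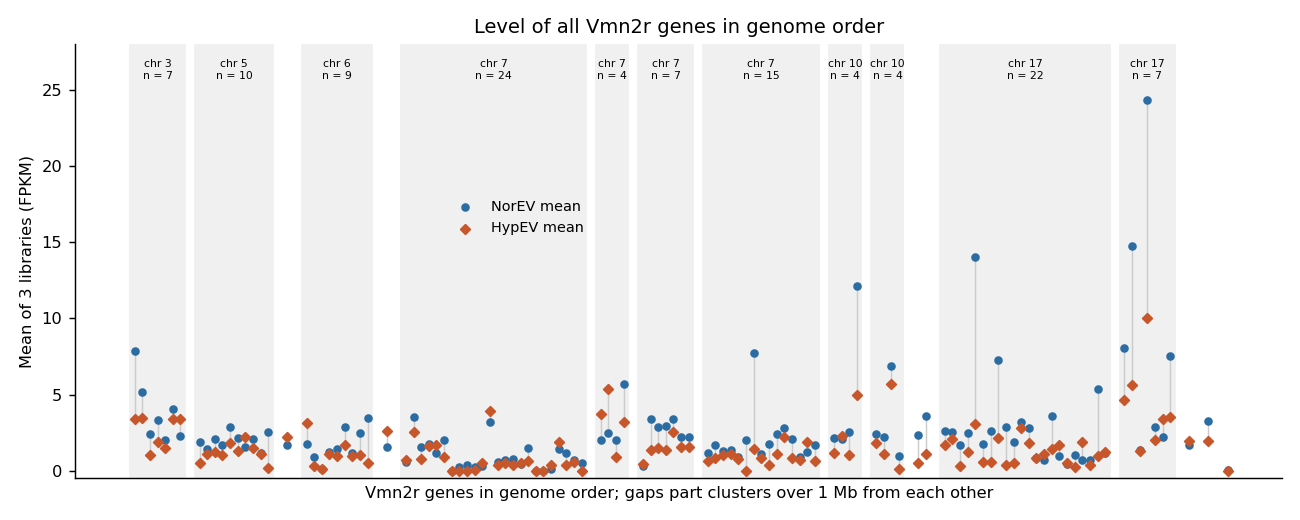
Mean FPKM of each of the 120 Vmn2r genes in genome order, with NorEV means as blue circles and HypEV means as orange diamonds (n = 3 libraries each), and a grey line between the pair. Shaded blocks are clusters of at least 4 genes with their chromosome and size. The block of 7 genes on chromosome 17 holds the highest gene, and the block of 24 genes on chromosome 7 has the lowest median of the shaded blocks, 0.596 FPKM.

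The chromosome 7 cluster is also where the coding sequences are most alike. Across its 24 genes, the median share of 50-base windows of the coding sequence found in no transcript of another gene was 6.84%, and the median identity to the nearest copy was 99.3%. Over all 120 genes the medians were 65.5% and 95.6%. Only 15 of the 120 genes had no near-identical copy, that is another gene over 90% alike over at least 80% of the coding sequence, so for the others the split of reads between copies is uncertain. The 15 can share sequence too: Vmn2r55 among them had 28.6% unique windows and a copy 98.7% identical over a shorter stretch. How the authors treated reads that map to several places is not stated in the sources used.

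All 3 receptor genes listed at 0 in every library were in this cluster. Vmn2r47 (9816782 to 9841325, minus strand) had no 50-base window of its own and was 100% identical to the pseudogene Gm10302. Vmn2r46 (9747811 to 9770571, minus strand) was 99.9% identical to the pseudogene Gm3972 and had 0.378% unique windows. Vmn2r35 (7786151 to 7819867, minus strand) was 99.3% identical to the pseudogene Vmn2r-ps49 and had 2.37% unique windows. Protein-coding genes that share their sequence like this can be listed at 0 with or without RNA, so these zeros do not show absence.

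The likeness can be read in a stretch of 60 coding bases, taken from the GENCODE M21 gene models and transcripts (GRCm38) at the same aligned place in 7 genes. Capitals mark bases that differ from Vmn2r47. The 3 genes at 0 are shown first, then Vmn2r114, Vmn2r112 and Vmn2r83, the 3 of highest level, and Vmn2r1, of another branch of the family.
Vmn2r47: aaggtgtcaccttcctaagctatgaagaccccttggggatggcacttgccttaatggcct
Vmn2r46: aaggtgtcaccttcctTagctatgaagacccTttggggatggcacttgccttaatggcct
Vmn2r35: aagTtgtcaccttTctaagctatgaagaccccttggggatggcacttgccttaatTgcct
Vmn2r114: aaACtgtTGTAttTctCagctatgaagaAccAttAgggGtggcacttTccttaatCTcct
Vmn2r112: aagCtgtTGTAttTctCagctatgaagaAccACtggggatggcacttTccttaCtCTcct
Vmn2r83: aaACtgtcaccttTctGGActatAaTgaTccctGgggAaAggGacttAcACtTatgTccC
Vmn2r1: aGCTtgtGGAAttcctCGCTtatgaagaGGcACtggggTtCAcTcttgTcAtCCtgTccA
Vmn2r46 differed from Vmn2r47 at 2 of these bases and Vmn2r35 at 3, where Vmn2r114 differed at 15, Vmn2r112 at 14, Vmn2r83 at 19 and Vmn2r1 at 25.

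Below 10% unique windows there were 19 genes, 17 of them in the chromosome 7 cluster, with a median of 0.459 FPKM. Above that the level did not climb with uniqueness: the median was 1.68 FPKM for the 25 genes from 10 to 50%, 1.76 FPKM for the 62 genes from 50 to 90%, and 1.37 FPKM for the 14 genes from 90% up. Over all 120 genes Spearman's rho between unique windows and the mean level was 0.24, and over the 96 genes outside the chromosome 7 cluster it was -0.085. These are correlations across genes of the same 6 libraries, which are no independent replicates.

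**Figure D3:**
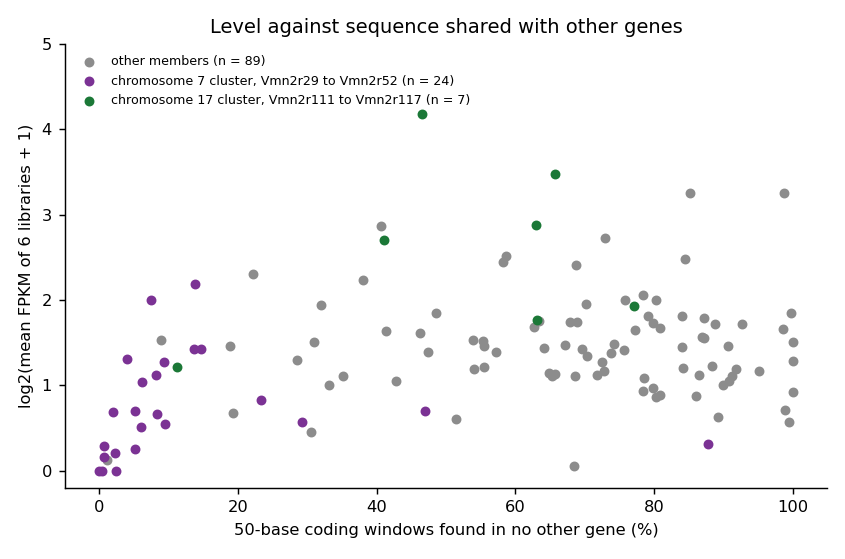
Level of each Vmn2r gene, as log2(mean FPKM of 6 libraries + 1), against the percent of its 50-base coding windows found in no other gene. Each point is 1 of 120 genes, purple for the chromosome 7 cluster of 24, green for the chromosome 17 cluster of 7 and grey for the rest. Most of the lowest levels lie below 10% unique windows, where the median is 0.459 FPKM, with exceptions such as Vmn2r121 at 68.5%, and no slope is seen above it.

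The scale of the values depended on gene models. With the longest GENCODE M21 transcript as length, 93.0% of protein-coding genes gave whole reads in all libraries, but only 10 of the 117 Vmn2r genes above 0 did. With a coding length from the same release, which leaves out untranslated regions, 85 did, 73 of them at no full transcript length. For 5 genes only a full length gave whole reads, and for 27 no annotated length did. Genes with few reads meet this easily, but of the 25 genes with at least 20 reads in some library 18 gave whole reads at a coding length. The median length that the values fit was 2574 bases, where the longest transcripts have a median of 6440.5 bases. Levels per kilobase would be lower on the longer models, unless reads in the untranslated regions were added. At 2574 bases, 1 read was worth 0.181 to 0.356 FPKM.

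The 5 receptor genes of highest level came from 3 clusters. Vmn2r114 (chromosome 17, 23285392 to 23312537, minus strand) had 13.5, 36.3 and 23.2 FPKM in NorEV and 6.17, 14.5 and 9.42 FPKM in HypEV. HypEV 2 was slightly above NorEV 1, and the other HypEV libraries were below all of NorEV. Its mean over the libraries was above that of 89.6% of protein-coding genes, from 38, 132 and 89 reads in NorEV and 34, 54 and 32 reads in HypEV. Its log2 fold change on the log2(FPKM + 1) scale, which understates changes of low genes, was -1.17 ± 0.50 (SE) and did not pass (limma, adjusted p = 0.720). It was -0.76 with the Gm23935 family taken out of the library totals.

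Vmn2r112 (22600951 to 22620842, plus strand), in the same cluster, had 4.62, 24.2 and 15.3 FPKM in NorEV and 1.81, 12.4 and 2.65 FPKM in HypEV, with overlapping groups. Vmn2r83 (chromosome 10, 79468731 to 79493585, plus strand) had 4.21, 17.9 and 14.4 FPKM in NorEV and 3.94, 9.01 and 2.03 FPKM in HypEV, also overlapping. Vmn2r83 held 197 reads in all. Among the GENCODE M21 transcripts it has no near-identical copy, and 98.7% of its windows match no other gene exactly. Sequence outside those transcripts was not searched, so sharing of reads with it was not tested. Vmn2r111 (22544504 to 22573482, minus strand), beside Vmn2r112, had 6.40, 10.45 and 7.28 FPKM in NorEV and 3.45, 4.84 and 5.59 FPKM in HypEV, and all of its HypEV libraries were below all of NorEV. Its log2 fold change was -0.68 ± 0.48 (SE; limma, adjusted p = 0.777). Both are on the deposited totals, and with the Gm23935 family taken out of the library totals the log2 fold change of Vmn2r111 was -0.30. At the other end, the 5 lowest genes above 0 (Vmn2r121, Vmn2r21, Vmn2r36, Vmn2r42 and Vmn2r41) had means of 0.0364 to 0.188 FPKM. Vmn2r121 rested on 1 read in NorEV 3.

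Vmn2r116 is named here for its known ligand and not by its values: it is the receptor of the male pheromone peptide ESP1. It had 1.78, 2.48 and 2.34 FPKM in NorEV and 0.182, 2.42 and 7.66 FPKM in HypEV. HypEV thus spanned the NorEV range on both sides. Esp1 itself had 2.62, 1.35 and 2.55 FPKM in NorEV, and in HypEV it had 9.23 FPKM in library 2 and was listed at 0 in the other two.

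Vmn2r1 to Vmn2r7, on chromosome 3 from 64081547 to 64844765, form the branch called family C, whose receptors are broadly made together with the other V2R types in vomeronasal neurons. Of these 7 genes 6 were above 0 in all libraries, and the median of their means was 2.83 FPKM, where it was 1.46 FPKM over the 113 others. The family C median was 4.01, 3.35 and 3.17 FPKM in NorEV and 1.82, 2.79 and 1.10 FPKM in HypEV, with all HypEV libraries below all NorEV ones. Values in this paragraph rest on the deposited totals, of which the Gm23935 family took 49.6% in HypEV 1 and 24.5% in HypEV 3. Whether the order of the groups holds without that family is therefore not shown by them. Vmn2r1, the highest of them, had 10.36, 3.62 and 9.53 FPKM in NorEV and 4.26, 5.303 and 0.553 FPKM in HypEV, with overlapping groups. Vmn2r4 had 4.01, 3.35 and 2.68 FPKM in NorEV and 2.21, 2.27 and 1.10 FPKM in HypEV, and was the only 1 of the 7 whose groups did not overlap, though its log2 fold change of -0.62 turned to 0.013 with quantile normalization. Vmn2r7 alone had a higher mean in HypEV, 3.40 ± 1.71 against 2.25 ± 1.11 FPKM (SD, n = 3). None of the 7 passed (limma, adjusted p of 0.754 to 0.963).

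The comparison of HypEV with NorEV asks whether the vesicles of neurons under hypoxia carry other RNA than those of control neurons. No Vmn2r gene passed the threshold in it. The fit covered the 44125 genes whose mean reached 1 FPKM, of which 7 (0.0159%) passed at an adjusted p under 0.05, and 0 of the 20356 tested protein-coding genes. Of the 120 receptor genes 89 were tested and 31 were too low, and the smallest adjusted p was 0.689 (limma). At an unadjusted p under 0.05, 3 of the 89 were lower and 0 higher, where 4.25% of tested protein-coding genes were lower and 0.162% higher (6.13% and 0.635% of all tested genes). limma-voom on recovered reads called 0 of 100 receptor genes, where 0.284% of all genes it tested passed (smallest adjusted p of a receptor gene = 0.113). At an unadjusted p under 0.05 it had 14 receptor genes lower and 0 higher, near the shares over all genes in that fit, 12.7% and 0.211%. With the Gm23935 family taken out of its totals 5 of 100 were lower, beside 3.97% of all genes. Fewer vesicles with a transcript and fewer copies in each vesicle cannot be told apart in these bulk libraries.

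More receptor genes had a lower than a higher level in HypEV, at a share close to that of all protein-coding genes. The mean log2 value was lower in HypEV for 92 of the 120 genes and higher for 25, so 76.7% were lower, beside 77.6% of all protein-coding genes. The median log2 difference over all 120 genes was -0.41, beside -0.40 over all protein-coding genes. Both are on the log2(FPKM + 1) scale, which understates changes of low genes. With a pseudocount of 0.1 the median of the receptor genes was -0.81, beside -0.58 over all tested genes. The tested genes leave out those with a mean under 1 FPKM. At the pseudocount of 1 the median of the receptor genes was -0.22 with the Gm23935 family taken out of the library totals and -0.26 without HypEV 1. It turned to 0.037 with each library centred on its median and to 0.13 with quantile normalization. On the log2(FPKM + 1) scale the direction of the family therefore depends on how libraries are scaled. On the plain FPKM scale the Vmn2r median was set against the protein-coding median of the same library. That ratio was 0.154 to 0.187 in HypEV and 0.194 to 0.266 in NorEV.

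In 19 receptor genes (15.8%) all HypEV libraries were below all NorEV libraries, and in 0 the reverse held. Of all protein-coding genes 12.2% were lower in this way and 0.773% higher. With the Gm23935 family taken out of the library totals, 12 receptor genes (10%) were lower and 2 higher, beside 6.27% and 4.61% of protein-coding genes. The 19 genes were spread over 11 clusters, with 7 of the genes in the chromosome 17 cluster of 22 genes that runs from Vmn2r90 to Vmn2r110.

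**Figure D4:**
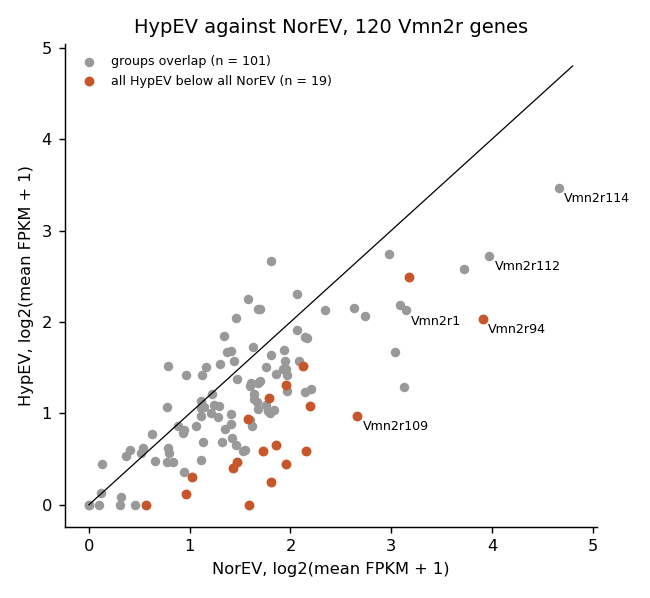
Level in HypEV against NorEV, each as log2(mean FPKM + 1) over 3 libraries, for the 120 Vmn2r genes. Orange points are the 19 genes whose HypEV libraries all lie below all NorEV libraries, grey points the other 101, and the line marks equal levels. Most points lie below the line, as they do for 77.6% of protein-coding genes.

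Vmn2r94 (chromosome 17, 18241122 to 18277756, minus strand) had the smallest p of the receptor genes in limma and, on the log2(FPKM + 1) scale, a fold change as large as that of Vmn2r71. With a pseudocount of 0.1 the log2 fold change was -2.42 for Vmn2r94. It was larger for Vmn2r71 (-3.99), Vmn2r17 (-3.28), Vmn2r97 (-3.02) and Vmn2r27 (-3.00), which all have libraries at 0. Vmn2r109, with no library at 0, had -2.44. Vmn2r94 had 13.0, 21.9 and 7.08 FPKM in NorEV and 0.9502, 6.48 and 1.85 FPKM in HypEV. Its groups thus did not overlap, by a narrow margin between HypEV 2 and NorEV 3. These came from 35, 76 and 26 reads in NorEV and 5, 23 and 6 reads in HypEV. The log2 fold change was -1.99 ± 0.67 (SE), lower in 3 of 3 HypEV libraries, and did not pass (limma, adjusted p = 0.689). It was -1.72 with the Gm23935 family taken out of the library totals. Of its windows 85.1% are unique, and its nearest copy, Vmn2r104, is 91.7% identical.

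Vmn2r109 (20539969 to 20564756, minus strand), in the same cluster, had 3.91, 7.96 and 4.15 FPKM in NorEV and 0.362, 1.07 and 1.47 FPKM in HypEV. All HypEV libraries were far below all NorEV libraries, from 2 to 5 reads against 11 to 29. Its log2 fold change was -1.67 ± 0.63 (SE; limma, adjusted p = 0.720), and -1.49 with the Gm23935 family taken out of the library totals. Vmn2r97, also there, had 4.95, 1.64 and 2.07 FPKM in NorEV, and in HypEV it was listed at 0, 0.803 and 0.293 FPKM. Vmn2r17 on chromosome 5 had 1.79, 4.16 and 1.57 FPKM in NorEV and 0, 0.271 and 0.297 FPKM in HypEV, where no library held more than 1 read. Vmn2r27 on chromosome 6 had 7.11, 1.65 and 1.56 FPKM in NorEV and 0.181, 1.34 and 0 FPKM in HypEV, where NorEV 1 stood well above the rest. None of these 3 passed (limma, adjusted p of 0.720 to 0.741).

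Among the 5 smallest p-values were also Vmn2r96 and Vmn2r71, whose groups overlapped. Vmn2r96 had 3.51, 8.76 and 9.42 FPKM in NorEV and 1.39, 3.84 and 1.29 FPKM in HypEV. Vmn2r71 had 1.43, 8.54 and 13.3 FPKM in NorEV, and in HypEV it had 4.31 FPKM in library 2 and was listed at 0 in the other two. Its exons overlap those of Vmn2r70 on the opposite strand, and whether the counting kept strands apart is not stated in the sources used.

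**Figure D5:**
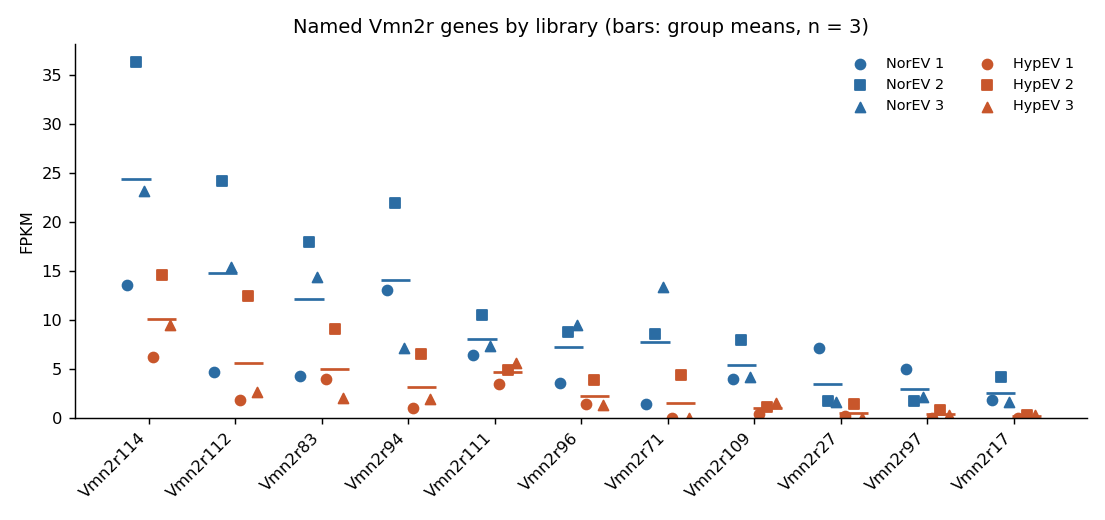
FPKM in each library for 11 named Vmn2r genes, those of highest level, those of smallest p and the 5 largest differences among genes whose groups do not overlap. Points are libraries (blue NorEV, orange HypEV) and bars group means (n = 3). Vmn2r114 is highest with 36.3 FPKM in NorEV 2, and Vmn2r94 and Vmn2r109 show no overlap between groups.

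As a list, the other genes of vomeronasal signalling had a median nearer the level of a typical gene, with a wide spread between members. A list of 40 such genes covers the channel, G proteins, phospholipase, H2-M class Ib molecules, transcription factors, adhesion molecules, formyl peptide receptors and pheromone peptides. Of these 39 were found and 30 were above 0 in all libraries. Their median was 7.17, 7.59 and 7.36 FPKM in NorEV and 3.37, 7.30 and 6.32 FPKM in HypEV. Means over the 6 libraries ran from 0 FPKM for Trpc2 to 65.6 FPKM for Gng8. Those of Fpr-rs3, Fpr-rs4, Fpr-rs6 and Fpr-rs7 were 0.444 to 4.70 FPKM, and that of Esp1 was 2.62 FPKM. The H2-M10 genes had 2.35 to 5.94 FPKM, while H2-M1, H2-M9 and H2-M11 had 6.78, 7.46 and 16.5 FPKM. Of 36 tested, 30 had a lower and 6 a higher mean log2 value in HypEV, beside 77.6% of all protein-coding genes lower. The latter share also covers genes too low to be tested, so the 2 sets are not alike. In limma 0 passed, with 3 lower and 0 higher at an unadjusted p under 0.05, where 6.13% and 0.635% of all tested genes were. The list's median log2 difference was -0.49, beside -0.44 over all tested genes.

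Trpc2, the transduction channel of vomeronasal neurons, was listed at 0 in all 6 libraries. All 2874 of its exon bases (chromosome 7, 102083116 to 102096396) are also exons of other genes on the same strand, Xndc1 and the joined gene Xntrpc, so its 0 does not show absence. Xntrpc had 0.189, 0.146 and 0.414 FPKM in NorEV, and in HypEV it had 0.156 FPKM in library 3 and was listed at 0 in the other two, with overlapping groups. Xndc1 had 2.05, 1.81 and 3.21 FPKM in NorEV and 2.83, 3.53 and 2.18 FPKM in HypEV, also overlapping. Gng8, the G protein gamma subunit found in V2R neurons, had 85.5, 45.9 and 65.4 FPKM in NorEV and 39.5, 70.7 and 86.5 FPKM in HypEV. Its group means were 65.6 ± 19.8 and 65.6 ± 23.9 FPKM (SD, n = 3).

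Gnao1, which encodes Go-alpha and is also abundant in brain neurons, had 18.5, 33.4 and 21.1 FPKM in NorEV and 9.63, 17.4 and 9.18 FPKM in HypEV, with no overlap. Its log2 fold change was -0.97 ± 0.44 (SE; limma, adjusted p = 0.720). Plcb2, a phospholipase C, had 50.5, 38.5 and 34.3 FPKM in NorEV and 20.1, 23.9 and 16.6 FPKM in HypEV, again with no overlap, and a log2 fold change of -0.98 ± 0.37 (SE; limma, adjusted p = 0.720). These values of Gnao1 and Plcb2 are on the deposited totals. With the Gm23935 family taken out of the library totals the log2 fold change was -0.55 for Gnao1 and -0.55 for Plcb2. Kirrel2, an adhesion molecule of sensory axons, had 17.8, 60.8 and 37.2 FPKM in NorEV and 5.75, 23.6 and 6.79 FPKM in HypEV, with overlapping groups. Of 16 alternative fits it passed in 1, limma-voom on recovered reads (log2 fold change -1.90, adjusted p = 0.0382), and not in limma (adjusted p = 0.720). With the Gm23935 family left out of limma-voom, Kirrel2 did not pass (log2 fold change -1.36, adjusted p = 0.371). Neurod1, a transcription factor of neuronal precursors, averaged 8.88 ± 1.71 FPKM in NorEV against 3.12 ± 2.20 in HypEV (SD, n = 3) and did not pass (limma, adjusted p = 0.720). The log2 fold change of Neurod1 was -1.39, and -1.04 with the Gm23935 family taken out of the library totals. Omp, a marker of mature olfactory and vomeronasal neurons, had 9.23 ± 3.49 and 8.47 ± 4.89 FPKM.

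Markers of the labelled cell type were present, beside markers of others. All 14 pan-neuronal markers were above 0 in all libraries, their median being 9.37 ± 1.29 FPKM in NorEV against 8.44 ± 2.25 in HypEV, not far from the protein-coding medians of 7.39 and 5.60 FPKM. Of 11 markers of mature vomeronasal and olfactory sensory neurons 10 were above 0 in all libraries and only Trpc2 was at 0. Of all protein-coding genes 82.4% were above 0 in all libraries. The median of the 11 markers was 6.09 ± 0.988 and 4.21 ± 2.12 FPKM. Their summed level was 117 to 151 FPKM in NorEV and 74.2 to 148 in HypEV. Gng8 alone made up 45.9 to 85.5 FPKM of it in NorEV and 39.5 to 86.5 in HypEV. The 5 markers of vomeronasal supporting cells and glands had 12.1 ± 4.48 and 15.8 ± 7.73 FPKM, with 3 above 0 in all libraries. Astrocyte markers had 12.6 ± 1.22 and 10.9 ± 5.15 FPKM, microglia markers 6.58 ± 0.374 and 5.72 ± 2.26, and oligodendrocyte markers 5.50 ± 1.69 and 4.51 ± 1.69. The part of other cell types, or of a low signal spread over many genes, in the Vmn2r values was not tested.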

How the data were processed

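The authors deposited 1 table per library with FPKM values for 53379 Ensembl identifiers, whose names mention HTSeq. Library preparation used the Epi mini longRNA-seq kit on RNA harvested in Trizol, per the labels' protocols. The aligner, genome build, annotation and vesicle isolation are not given in the sources used here. GENCODE M21 (GRCm38) held 53274 of the identifiers. Total reads per library were recovered from the steps between low FPKM values, of which 96.0% were whole reads within 0.01. Receptor genes not whole at an annotated length were given the shortest fitting length from 2000 bases.

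Groups were compared with limma 3.58.1 (R 4.3.3) on log2(FPKM + 1), for genes whose mean reached 1 FPKM, with a variance trend, two-sided, and a Benjamini-Hochberg adjusted p under 0.05 over all tested genes. limma-voom used genes with a mean of at least 3 recovered reads. The fit was tested on simulated data. Copies were found with blastn 2.17.0 and exon overlaps with bedtools 2.31.1. The 60-base stretch was aligned with mafft 7.526. Python 3.11.15 with scipy 1.17.1, pandas 2.3.3, numpy 2.4.6 and, for plots, matplotlib 3.10.9 did the rest.

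The receptor genes, lists and tests were chosen with earlier results of these data known. Named genes were the 5 of highest and lowest mean, those at 0 throughout, the 5 largest differences per direction among genes without overlap of the groups, the 5 smallest p and Vmn2r1 to Vmn2r7. Of the signalling list they were the 4 smallest p, Trpc2, Gng8, Gnao1 and Omp. Vmn2r116 and Esp1 fall outside this rule and were added after the values were seen. Alternatives were another pseudocount, filters, scalings, variance models, detection limits, a replicate block and each library left out.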

Additional observations from a re-analysis of the deposited data

How the results depend on the processing

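In all 16 alternative fits 0 receptor genes passed. The count of all genes past the threshold, 7, became 0 with each library centred on its median, with no filter on low values, with no trend and with a pseudocount of 0.1. It was 97 in limma-voom on recovered reads and 19 in limma-voom with the Gm23935 family left out, a fit added after seeing the data. Leaving out 1 library gave 0 to 71 genes, with 71 without HypEV 2. At an unadjusted p under 0.05 the lower receptor genes numbered 3 of 89, beside 6.13% of all tested genes. They were 9 of 86 without HypEV 2 (14.95% of all genes), 8 of 87 without NorEV 1 (6.95%), 2 of 91 without HypEV 3 (4.21%), 1 of 83 without NorEV 3 (3.57%), 0 of 92 without HypEV 1 (3.51%) and 0 of 84 without NorEV 2 (3.56%). With the replicate number as a block, 0 of 44125 genes passed. The numbers share no stated culture or day, and the deviations of same-numbered libraries correlated at 0.045, 0.10 and -0.058, so the libraries were not treated as pairs. Not every library correlated best with its own number.

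The median log2 difference of the receptor genes, -0.41, was -0.81 with a pseudocount of 0.1, beside -0.58 over all tested genes. At the main pseudocount it reversed to 0.037 with each library centred on its median and to 0.13 with quantile normalization. It was -0.52 to -0.26 with 1 library left out. The NorEV share of receptor genes detected, 88.9%, was 81.9% at 2 reads or more, 69.7% at 1 FPKM or more, 95.6% over the 15 genes without a near-identical copy and 95.2% over the 76 genes with at least 50% unique windows, a choice added after seeing the data. The HypEV share, 78.9%, was 47.8% at 1 FPKM or more. The NorEV median was 2.06 FPKM over the genes with at least 50% unique windows. The cause of these shifts was not tested. Receptor genes had a median of 3 to 8 reads per library, and the tested ones standard errors with a median of 0.73 on the log2 scale.

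Of 26 named genes that were tested, each under 14 to 16 alternatives, 19 kept the direction of their log2 fold change and 7 reversed in some, none of them past the threshold. Gng8 (-0.03) was 0.41 without the Gm23935 family, 0.42 centred, 0.43 under quantile normalization and 0.42 in limma-voom without that family. Omp (-0.24) was 0.13, 0.21, 0.22 and 0.20 in the same order, and Vmn2r5 (-0.16) was 0.13, 0.29, 0.31 and 0.19. Under quantile normalization Vmn2r4 (-0.62) was 0.013, Vmn2r6 (-0.46) was 0.31 and Esp1 (-0.52) was 0.17. Vmn2r116 (0.039) was -0.87 in limma-voom, -0.019 in limma-voom without the family and -0.37 with a pseudocount of 0.1. With 1 library left out the ranges were -0.26 to 0.29 for Gng8, -0.52 to 0.32 for Omp, -0.67 to 0.19 for Vmn2r5, -1.11 to 0.20 for Vmn2r6, -0.66 to 0.77 for Vmn2r116 and -1.64 to 0.039 for Esp1.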

Other observations

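The order of the receptor genes was partly shared between libraries. Spearman's rho of the levels of the 120 genes lay between 0.30 and 0.71 over all pairs of libraries, and these are correlations across genes, which share sequence and are no independent replicates. Levels were related to the GC content of the coding sequence with a rho of 0.30 over the 120 genes and of 0.32 over the 96 genes outside the chromosome 7 cluster of Vmn2r29 to Vmn2r52. In the annotation, 7 receptor genes share exon bases with a same-strand gene and 8 with a gene on the opposite strand, so that their reads may be shared.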
